A study of Homo sapiens with 12 samples.

Results

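The comparison described here is a dose step of a human PUM2-ADARcdMUT fusion in HEK293T cells, a human embryonic kidney line: 3 libraries titled 250 ng against 3 libraries titled 25 ng. These are 6 of the 12 libraries of the study, and the 8-base elements listed in all 12 tables, 1005 of the 1022 entries seen in any table, are the sequences over which the step was measured. All 12 libraries came from wild-type HEK293T cells with a pool of recorder mRNAs, each holding a short element, and per the series text the fusion was induced with doxycycline in biological triplicate. The titles give the amounts 25 and 250 ng without naming the substance or where it was added. The 6 other libraries are the fusion without induction (3) and ADARcdMUT without PUM2, titled 1000 ng (3); they serve here as background. The extraction text names zebrafish embryos, while the source, the cell line and the series text give HEK293T, which is used here.

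PUM2 is a Pumilio protein. Its PUF domain reads short RNA elements that begin with UGUA, usually in the 3′ UTR, where bound Pumilio proteins recruit deadenylases and lower mRNA stability and translation. ADAR enzymes deaminate adenosine to inosine, which is read as guanosine after reverse transcription. In this assay the fusion brings the deaminase to a recorder hairpin beside the element, so that edits in the hairpin record contact with the RNA in living cells.

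Each read carried 7 recorder adenosines. The editing level of an element (all edits as a percent of 7 times its reads) is the product of the share of reads with at least 1 edit and the edits per edited read, divided by 7. On the log2 scale the level of an element therefore splits exactly into these factors, and the dose step splits in the same way (class medians add up to within rounding of the median). The share counts reads that were edited at all, and the edits per edited read give how many edits such a read held.

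The elements were sorted by sequence alone. Strong sites are the 4 forms of the consensus TGTANATA, where N at position 5 is any base. Weak sites (181) hold TGTA and are not consensus, partial sites (168) hold TGT and not TGTA, and non-sites (652) hold no TGT. The consensus forms are shown because the other classes are set against them; capitals mark the 7 fixed consensus positions, and lower case marks position 5 or a substituted base. All sequences are written 5′ to 3′ as DNA, as the tables list them.
consensus with A at position 5: TGTAaATA
consensus with C at position 5: TGTAcATA
consensus with G at position 5: TGTAgATA
consensus with T at position 5: TGTAtATA

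The 9 single substitutions at positions 6, 7 and 8 of the last of these keep TGTA and are weak sites. They were chosen by sequence and are shown to set single changes beside the T form. Their mean levels lay between that of the T form and the non-site median at both doses.
position 6, A to C: TGTAtcTA
position 6, A to G: TGTAtgTA
position 6, A to T: TGTAttTA
position 7, T to A: TGTAtAaA
position 7, T to C: TGTAtAcA
position 7, T to G: TGTAtAgA
position 8, A to C: TGTAtATc
position 8, A to G: TGTAtATg
position 8, A to T: TGTAtATt

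The 4 elements with C at position 2 and A at position 3 are non-sites that differ from the consensus by these bases only. They serve as matched non-sites, and they are only some of the elements in which both positions are replaced.
matched to A at position 5: TcaAaATA
matched to C at position 5: TcaAcATA
matched to G at position 5: TcaAgATA
matched to T at position 5: TcaAtATA

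Depth was 11868229 to 23003929 reads at 25 ng and 14806339 to 25127959 reads at 250 ng. The median element had 11014 to 23829 reads in the 6 libraries, and the lowest had 1167. One library stood apart: the median edits per edited read was 2.31 in replicate 2 of 25 ng against 2.15 in each of the other 2 replicates, while its share of edited reads did not stand apart. The split of the dose step is therefore also given without that library.

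In strong sites the editing level was higher at 250 ng than at 25 ng, and most of the step lay in the share of reads that were edited. The median level was 7.23, 7.85 and 6.65% in the 3 libraries at 25 ng and 13.2, 13.2 and 13.7% at 250 ng. The groups did not overlap, and the lowest library at 250 ng was well above the highest at 25 ng. The means were 7.24% ± 0.603 and 13.3% ± 0.289 (SD, n = 3), a 1.85-fold step, against 1.79% ± 0.0803 without induction.

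The share of strong-site reads edited was 18.2, 18.6 and 17.3% in the libraries at 25 ng and 29.0, 29.0 and 29.5% at 250 ng. Mean shares were 18.0% ± 0.644 and 29.2% ± 0.287 (SD, n = 3), a 1.62-fold step. Edits per edited read were 2.77, 2.94 and 2.69 at 25 ng and 3.18, 3.17 and 3.24 at 250 ng. All 3 libraries at 250 ng were above all 3 at 25 ng, but by a smaller margin, from a mean of 2.80 ± 0.129 to 3.20 ± 0.0383 (SD, n = 3), a 1.14-fold step. Without induction an edited read of a strong site held 1.87 ± 0.0459 edits, so 25 ng already stood well above that value, and the higher dose added 0.401.

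Non-sites took nearly the same fold step from a lower level. Their median level was 4.23, 4.48 and 4.16% at 25 ng and 7.70, 7.81 and 7.89% at 250 ng, a 1.82-fold step. The share of reads edited was 13.8, 13.7 and 13.6% at 25 ng and 21.7, 22.3 and 22.5% at 250 ng, a 1.62-fold step. Edits per edited read were 2.14, 2.29 and 2.13 at 25 ng and 2.48, 2.45 and 2.46 at 250 ng, a 1.13-fold step. The library that was high in this measure at 25 ng was replicate 2 again.

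Weak sites lay just above non-sites at both doses. Their level was 4.68% ± 0.261 at 25 ng and 8.45% ± 0.0724 at 250 ng (SD, n = 3), their share 14.3% ± 0.210 and 22.9% ± 0.335, and their edits per edited read 2.29 ± 0.116 and 2.60 ± 0.0146. The folds were 1.81 in level, 1.60 in share and 1.13 in edits per edited read. Partial sites, which keep TGT and lose the A that follows, had a level of 4.37% ± 0.200 and 7.85% ± 0.0928, close to non-sites. The classes go by sequence alone, and elements near the consensus can exceed the weak-site median without being weak sites. At 250 ng the 12 single substitutions at position 2, which hold no TGT, had a median level of 8.66% ± 0.263. The 12 at position 4, mostly partial sites, had 9.37% ± 0.162 (SD, n = 3). For each class and each measure all 3 libraries at 250 ng lay above all 3 at 25 ng, which gives the smallest p that 3 against 3 allow (two-sided exact permutation test, p = 0.10, adjusted p = 0.10 over 12 class steps).

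**Figure D1:**
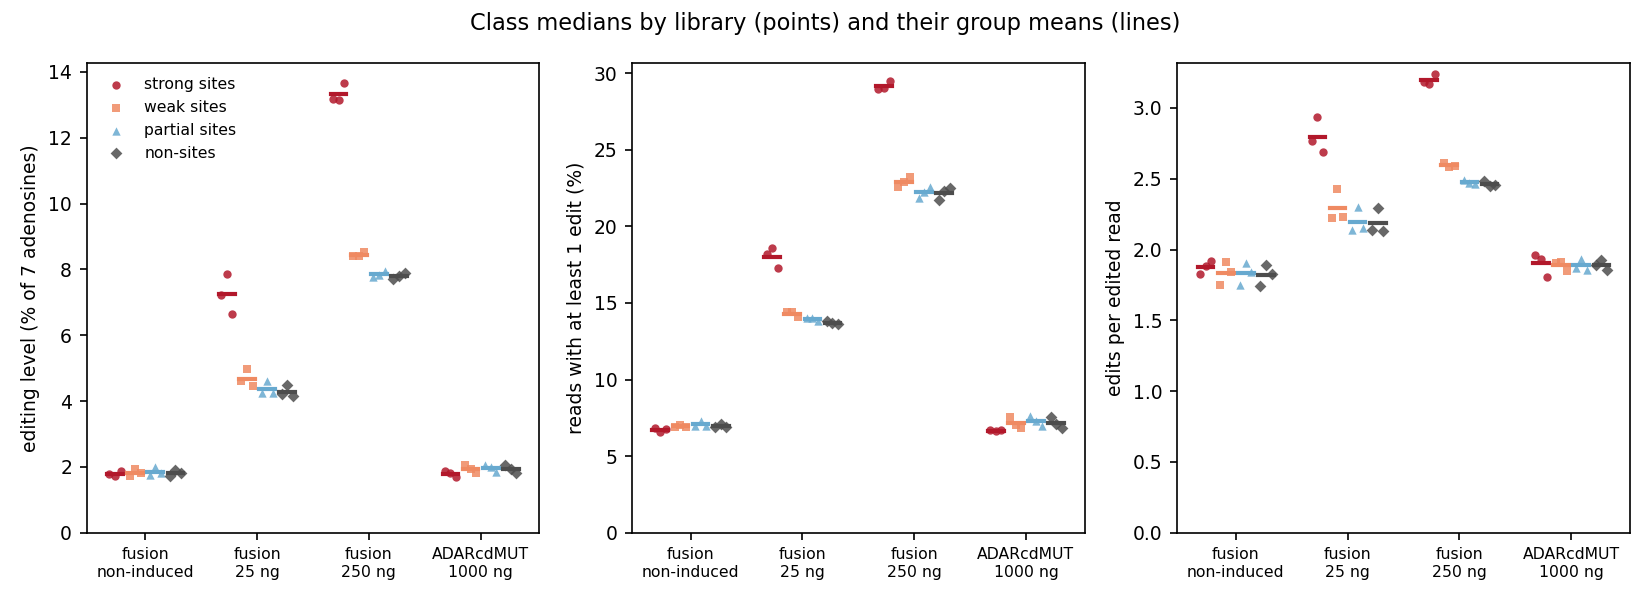
Editing level (% of 7 adenosines), share of reads with at least 1 edit (%) and edits per edited read by group, for the 4 classes of element; points are class medians of single libraries and lines are means of 3 libraries. Strong sites reach 13.3% at 250 ng against 7.24% at 25 ng, and the share steps up further in proportion than the edits per edited read.

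On the log2 scale the step of strong sites was 0.88 (SE 0.0717) in level, 0.70 (SE 0.0311) in share and 0.19 (SE 0.0393) in edits per edited read. The share thus made up 78.8% of the log2 step of strong sites, with a range of 74.0 to 86.7% over the 9 pairs of a 250 ng and a 25 ng library. It made up 79.3% in weak sites (73.8 to 88.1%), 79.6% in partial sites (73.9 to 87.4%) and 80.1% in non-sites (75.0 to 88.2%). The 4 ranges overlap almost entirely. Without replicate 2 of 25 ng the share part was 76.1% in strong sites, 76.1% in weak sites, 76.5% in partial sites and 77.0% in non-sites. The fold in edits per edited read was then 1.17 in strong sites and 1.15 in non-sites.

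In the first step, from no induction to 25 ng, edits per edited read took a larger part in strong sites. There the share made up 70.5% of the log2 step in strong sites (67.5 to 73.9% over 9 pairs), 76.6% in weak sites (69.4 to 82.9%) and 78.6% in non-sites (71.0 to 84.2%). The difference between these percents was not tested. In strong sites edits per edited read were 1.49-fold those without induction at 25 ng, against 1.20-fold in non-sites. The share was 2.67-fold and 1.97-fold.

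Whether the dose step differed between classes was tested on the difference of class medians within each library. For strong sites against non-sites the step differed by 0.02 in log2 level (SE 0.0411, range over 9 pairs -0.06 to 0.12, exact permutation p = 0.80, adjusted p = 0.96 over 6 tests). In the share it differed by 0.00 (SE 0.0301, range -0.06 to 0.07, exact permutation p = 1), and in edits per edited read by 0.02 (SE 0.0165, range -0.01 to 0.07, exact permutation p = 0.30, adjusted p = 0.80). These tests detected no difference in fold step, but 3 against 3 libraries cannot pass 0.05, so they do not show that the steps are equal. Without replicate 3 of 25 ng the level difference was -0.02 and the share difference was -0.02; without replicate 1 of 250 ng the share difference was -0.01.

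Weak sites against non-sites gave a difference of -0.01 in level (exact permutation p = 0.70, adjusted p = 0.96), -0.01 in share (exact permutation p = 0.20, adjusted p = 0.80) and 0.0074 in edits per edited read (SE 0.0071, exact permutation p = 0.40, adjusted p = 0.80). The sign in level turned to 0.01 with reads pooled over the class and to 0.03 when the 36 single substitutions at positions 6 to 8 stood for the weak sites. Without replicate 2 of 25 ng it was 0.0024. In edits per edited read the difference was 0.0165 (SE 0.0034) with pooled reads and 0.0377 (SE 0.0112) with the 36 single substitutions. In both of these the doses did not overlap (exact permutation p = 0.10, the smallest possible). It was 0.0141 without replicate 2 of 25 ng and 0.0023 without replicate 1 of 25 ng.

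The answer depends on how the background is treated. After the non-induced mean was subtracted from the level and the share, the gain of strong sites grew 2.12-fold from 25 to 250 ng, that of weak sites 2.35-fold, that of partial sites 2.40-fold and that of non-sites 2.43-fold. The difference between strong sites and non-sites was then -0.19 in log2 level and -0.18 in log2 share, with no overlap between the doses (exact permutation p = 0.10 in both, the smallest possible). The subtraction itself gives this sign. The folds as measured were alike, and the non-induced level was 1.79% in strong sites and 1.81% in non-sites. Removing a like background from the lower class raises its fold more, so these p-values are no separate support for a difference. In edits per gained read the folds were 1.08 in all 4 classes. The share then made up 91.4% of the step in strong sites, 91.4% in weak sites, 91.1% in partial sites and 91.8% in non-sites.

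In percentage points, strong sites gained most from the higher dose. Their level gained 6.09 points against 3.77 in weak sites, 3.48 in partial sites and 3.51 in non-sites. Their share gained 11.2 points against 8.57, 8.30 and 8.45 points, and their edits per edited read gained 0.401 against 0.302, 0.281 and 0.276. In points the gain of strong sites was thus 1.74 times that of non-sites in level, 1.32 times in share and 1.45 times in edits per edited read.

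**Figure D2:**
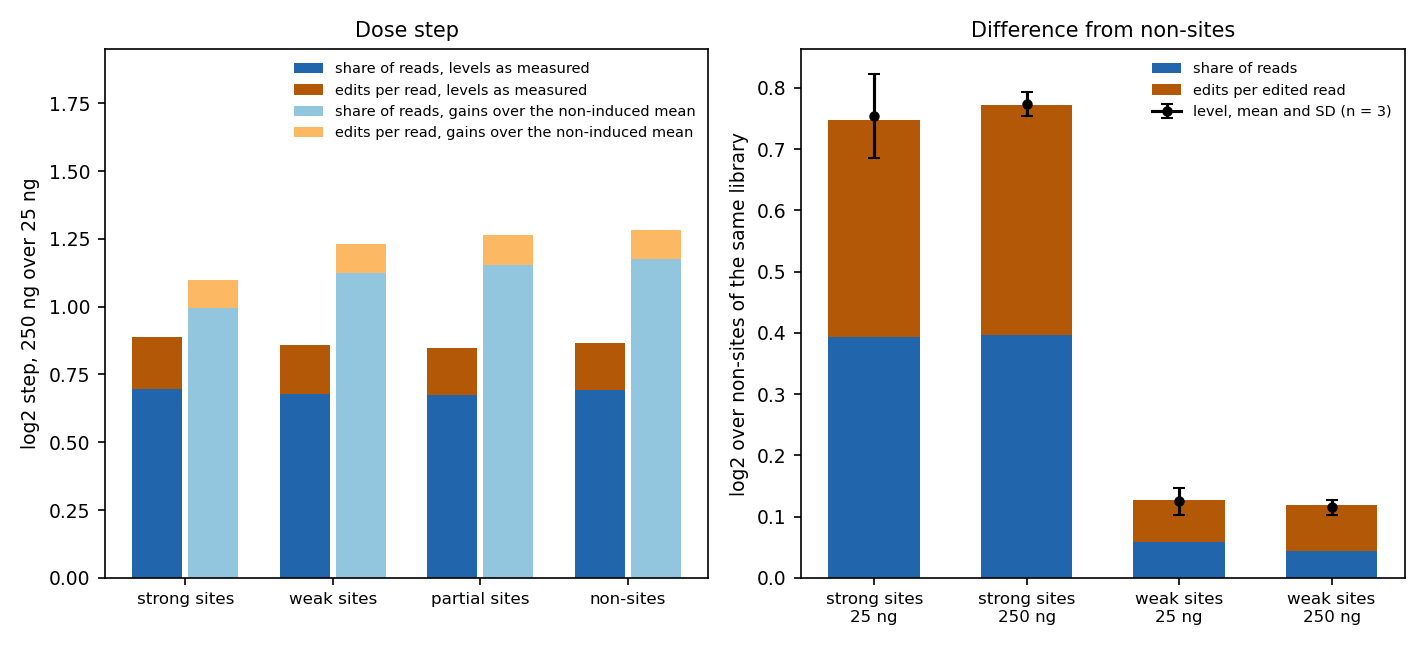
Left: log2 step from 25 to 250 ng for each class, split into the share of reads and the edits per edited read, for levels as measured (dark bars) and for gains over the non-induced mean (light bars); right: log2 difference from the non-sites of the same library, with the mean and SD of the level over 3 libraries. The step as measured is near 0.88 in strong sites and 0.86 in non-sites, and the preference for strong sites is divided nearly evenly between both factors at both doses.

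The preference for strong sites over non-sites had another make-up than the dose step. Within a library the level of strong sites exceeded that of non-sites by 0.75 ± 0.0683 on the log2 scale at 25 ng and by 0.77 ± 0.0203 at 250 ng (SD, n = 3), 1.69-fold and 1.71-fold. The share contributed 0.39 ± 0.0490 at 25 ng and 0.40 ± 0.0179 at 250 ng, and edits per edited read contributed 0.35 ± 0.0189 and 0.38 ± 0.0214. The share therefore made up 52.1% of the preference at 25 ng (50.7 to 54.5% over 3 libraries) and 51.2% at 250 ng (49.1 to 53.7%). The preference was thus divided nearly evenly between the factors, while the dose step lay mostly in the share of reads.

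Without induction the strong sites differed from non-sites by -0.02 ± 0.123 in log2 level, and with ADARcdMUT alone by -0.11 ± 0.0230 (SD, n = 3). In neither background group did strong sites exceed non-sites by more than the spread of the libraries. Weak sites exceeded non-sites by 0.12 ± 0.0227 at 25 ng and 0.11 ± 0.0120 at 250 ng, of which the share made up 47.5% and 38.7%.

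The edits on the reads that were gained give a further view of the same split. Relative to the non-induced mean, each gained edited read of a strong site carried 3.33 ± 0.149 edits at 25 ng and 3.58 ± 0.0376 at 250 ng (SD, n = 3). In non-sites it carried 2.57 ± 0.183 and 2.76 ± 0.0331. Between 25 and 250 ng the gained edits divided by the gained edited reads came to 3.74 in strong sites, 3.11 in weak sites, 2.95 in partial sites and 2.91 in non-sites (medians over elements). These are averages over a class, since the tables do not follow single molecules.

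Edits fell on fewer reads than an even spread would give. If the 7 adenosines were edited independently and at equal probability, the level at strong sites in the libraries at 25 ng would give 1.24 edits per edited read on average, and at 250 ng 1.48. The measured values were 2.26 and 2.17 times these. In non-sites the measured edits per edited read were 1.93 and 1.96 times the independent value, and in strong sites without induction 1.78 times. The share of edited reads was correspondingly 0.441 of the independent value at 25 ng and 0.461 at 250 ng in strong sites, and 0.520 and 0.511 in non-sites. At the same level, adenosines edited independently at unequal probabilities would give a higher share and fewer edits per edited read than equal ones, the opposite side from the measured values. The tables give no position of an edit in the hairpin, and the cause of the difference from the independent values was not tested.

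**Figure D3:**
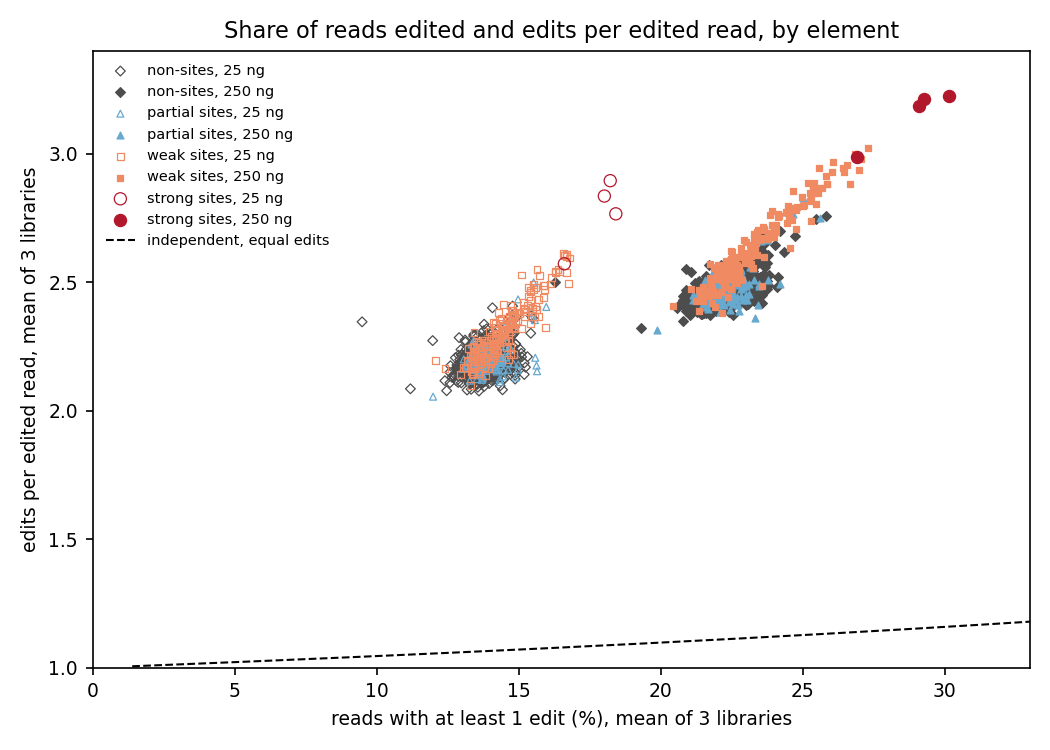
Share of reads with at least 1 edit (%) against edits per edited read for 1005 elements at 25 ng (open symbols) and 250 ng (filled symbols), means of 3 libraries; the dashed line is the value for 7 independent adenosines of equal probability. Strong sites lie at the upper end of each dose, the doses form separate clouds, and every element lies above the dashed line.

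The consensus elements were described one by one. With T at position 5, TGTAtATA had a level of 7.53, 7.71 and 6.61% at 25 ng and 13.9, 13.5 and 14.2% at 250 ng. Its share was 19.0, 19.3 and 17.0% at 25 ng and 30.2, 29.6 and 30.6% at 250 ng. Its edits per edited read were 2.78, 2.80 and 2.71 at 25 ng and 3.23, 3.19 and 3.25 at 250 ng. It had the highest share and level at 250 ng of the 4 forms, and its groups did not overlap in any measure.

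TGTAgATA, the form with G at position 5, was the lowest of the 4 at both doses. Its level was 6.09, 6.30 and 5.92% at 25 ng and 11.7, 11.3 and 11.4% at 250 ng. Its share was 16.6% ± 0.121 and 26.9% ± 0.283, and its edits per edited read 2.57 ± 0.0958 and 2.99 ± 0.0213 (SD, n = 3). The G form was below the other 3 in each library for each of these measures at 250 ng, so the cost of G at position 5 fell on both factors.

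TGTAaATA and TGTAcATA lay between the G and T forms in level and share at 250 ng, but their mean levels at 25 ng were not below that of the T form. TGTAaATA had a level of 7.30% ± 0.658 at 25 ng and 13.2% ± 0.328 at 250 ng, with 2.75, 3.09 and 2.66 edits per edited read at 25 ng. TGTAcATA had a level of 7.55% ± 0.737 and 13.4% ± 0.379, with 2.82, 3.08 and 2.78 edits per edited read at 25 ng (SD, n = 3). In both the high value is replicate 2, the library that stood apart, and the T, A and C forms are not separated from each other at 25 ng beyond their spread. The share part of the step was 76.3% for the T form, 81.9% for C, 80.2% for A and 76.3% for G.

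Among the 9 single substitutions of the T form the levels ran from 4.92% to 6.20% at 25 ng and from 8.74% to 11.8% at 250 ng. TGTAtATt, with T in place of the last A, kept most of the editing, at 6.45, 6.09 and 6.06% at 25 ng and 11.4, 11.7 and 12.3% at 250 ng. Its share was 17.8, 15.3 and 16.9% at 25 ng, and its edits per edited read were 2.53, 2.79 and 2.51. The library with the lowest share thus had the most edits per edited read, so the level varied less than either factor.

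TGTAtAcA, with C in place of T at position 7, was the lowest of the 9, with 4.71, 5.35 and 4.69% at 25 ng and 8.66, 8.59 and 8.97% at 250 ng. At 250 ng its share of 23.0% ± 0.465 was near the weak-site median, while its edits per edited read were 2.66 ± 0.0275 (SD, n = 3). TGTAttTA, with T at position 6, took the largest step of the 9, from 5.09% ± 0.222 to 10.1% ± 0.308, a 1.98-fold step with an SE of 0.06 on the log2 scale. Relative to the library median that step was 0.13 higher (SE 0.03), which did not pass (limma, adjusted p = 0.644).

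The matched non-sites stayed at the level of their class. TcaAtATA had 4.27% ± 0.318 at 25 ng and 8.09% ± 0.375 at 250 ng (SD, n = 3), with 2.22 ± 0.127 and 2.56 ± 0.0408 edits per edited read. TcaAaATA had 4.01% ± 0.0808 and 7.45% ± 0.238, TcaAcATA 4.20% ± 0.319 and 7.65% ± 0.150, and TcaAgATA 4.07% ± 0.326 and 7.42% ± 0.317 (SD, n = 3). Their folds in level, 1.82 to 1.90, overlapped those of the 4 consensus forms, 1.78 to 1.91.

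The consensus written backwards (atatatgt and the 3 forms with another base at position 4) holds TGT but not TGTA. These elements had levels of 4.36 to 4.43% at 25 ng and 7.59 to 8.11% at 250 ng, the range of partial sites. The entry EMPTY, whose content the tables do not state, had a level of 4.29% ± 0.156 at 25 ng and 7.63% ± 0.0689 at 250 ng, with a share of 13.9% ± 0.0625 and 22.1% ± 0.344 (SD, n = 3). These values are close to the non-site medians.

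The 84 single substitutions at the 7 fixed positions gave the cost of each base in both factors. Against the consensus form with the same base at position 5, a substitution at position 1 lowered the log2 share by 0.34 ± 0.0334 and the log2 edits per edited read by 0.29 ± 0.0158 at 25 ng (SD, n = 3 libraries, 12 elements). At position 3 the values were 0.33 ± 0.0141 and 0.31 ± 0.0171, and at position 2 they were 0.31 ± 0.0232 and 0.29 ± 0.0299. The cost was smaller at positions 4, 6 and 7, with 0.24 to 0.25 in share and 0.20 to 0.23 in edits per edited read. Position 8 cost least, at 0.20 ± 0.0169 and 0.17 ± 0.0105.

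At 250 ng the costs were near these values: 0.35 in share and 0.30 in edits per edited read at position 1, 0.29 and 0.29 at position 2, 0.35 and 0.32 at position 3, and 0.20 and 0.16 at position 8. The share made up 50.2 to 56.2% of the loss in level over the 7 positions and both doses. In 21 tests of a change in cost between the doses (7 positions, 3 measures) the smallest exact permutation p was 0.10, and the adjusted p ran from 0.92 to 1. That p is the smallest possible with 3 libraries per dose, so these tests do not show that the costs were equal. It was reached at position 8 in edits per edited read, where the log2 cost was 0.0158 smaller at 250 ng. Without induction the same substitutions moved the share by -0.0033 to 0.09 and the edits per edited read by -0.06 to -0.03.

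**Figure D4:**
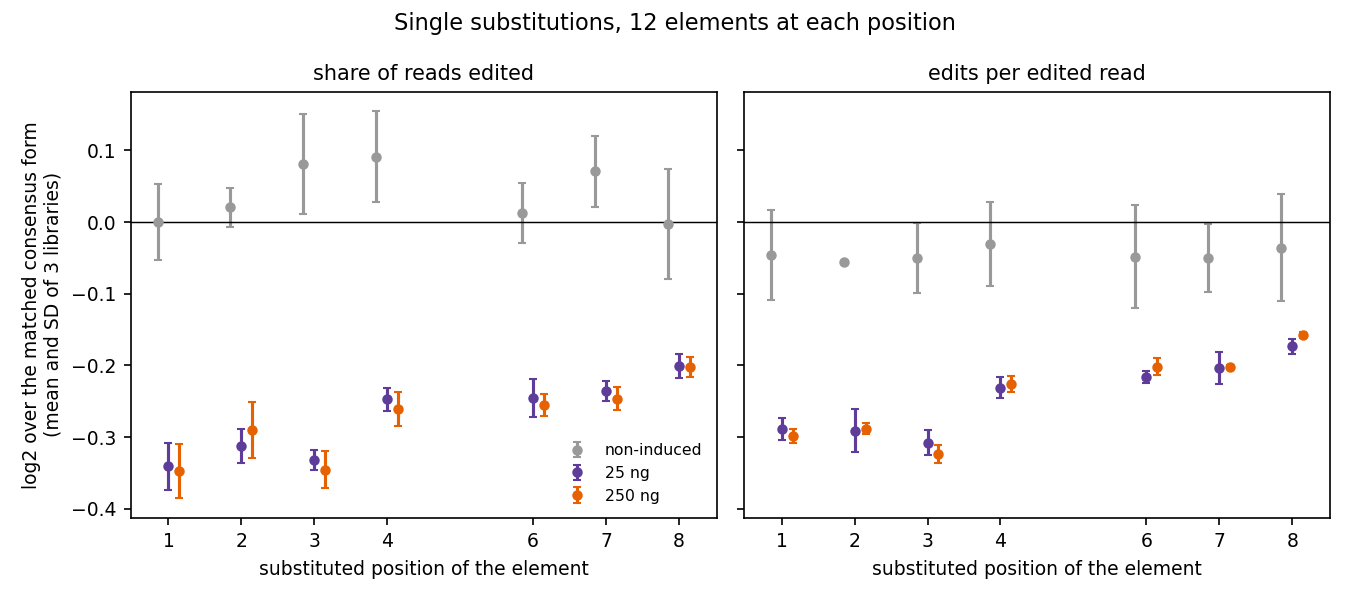
Log2 ratio of single substitutions to the consensus form with the same base at position 5, by substituted position (12 elements each), for the share of reads edited and for the edits per edited read; points are means and bars SDs of 3 libraries. The 25 and 250 ng points lie close to each other at each of the 7 positions, with the largest losses at positions 1 to 3 and the smallest at position 8.

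Element by element, the step was nearly general. All 1005 elements rose in level and all 1005 rose in share (limma, adjusted p under 0.05; 100% called in each), and in each of them all 3 libraries at 250 ng lay above all 3 at 25 ng (100% again). In edits per edited read 1003 of 1005 rose (99.8% called), and 975 had groups without overlap (97%). By class these 975 were all 4 strong sites, all 181 weak sites, 165 of 168 partial sites and 625 of 652 non-sites. These shares lie near the background in every class.

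The 2 elements not called in edits per edited read were both non-sites with overlapping groups, chosen here for that outcome. TaTcaATA had a log2 step of 0.10 (SE 0.0510, limma adjusted p = 0.0594), and TtcAccTA had 0.10 (SE 0.0569, limma adjusted p = 0.0848). TtcAccTA had 1333 reads in its lowest library.

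Relative to the library median, no element was called in level, share or edits per edited read (limma, 0 of 1005 and 0% in each). At an unadjusted p under 0.05 there were 63 in level, 77 in share and 67 in edits per edited read, and a quasi-likelihood model for each element without moderation called 0 as well, with 76, 70 and 73 at an unadjusted p under 0.05. The steps of single elements varied with an SD of 0.0478 in log2 level, against a median SE of 0.0361. In share the SD was 0.0377 against an SE of 0.0285, and in edits per edited read 0.0255 against 0.0202. The spread of steps between elements was thus larger than the median error of a single step in each measure, though no single element was called. Errors differed between elements, and whether the spread exceeded them was not tested.

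No weak site passed the adjusted test in edits per edited read. At an unadjusted p under 0.05, 20 of 181 weak sites had a larger relative step and 0 a smaller one, with 21 larger and 18 smaller among 652 non-sites and 47 larger and 20 smaller among all 1005 elements. The difference between these counts was not tested, and the class medians of weak sites and non-sites differed in step by 0.0074 (exact permutation p = 0.40). On the arcsine square root scale, on which equal folds are larger differences at higher levels, 44 elements had a larger step in level than the median and 1 a smaller one (limma, adjusted p under 0.05). Those 44 were all 4 strong sites, 33 of 181 weak sites and 7 of 652 non-sites.

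The extremes are given as a description of the range. The largest relative steps in share were those of atatatTt, at 0.16 (from 13.3% ± 1.50 to 23.7% ± 0.486), and caTAtATA, at 0.16 (from 13.1% ± 0.953 to 23.5% ± 1.58), followed by acTAgAcA, cGTAagTA and TaTAtATA. The last is the T form of the consensus with A at position 2, and its share was 14.8% ± 1.48 at 25 ng and 25.8% ± 0.818 at 250 ng (SD, n = 3). The smallest were those of atagatTt, at -0.11 (from 15.1% ± 0.447 to 22.5% ± 0.386), aGgAtATA, cGTAcATg, TGcgaATA and TGTtggTA. In edits per edited read the largest were atatgtat (0.10, from 2.22 ± 0.0645 to 2.67 ± 0.0689), cccccccc (0.09), TtTAtgTA, TGTAttTA and gGgAtATA. The smallest were aGTcgATA (-0.09, from 2.27 ± 0.103 to 2.40 ± 0.0300), gGTAagTA, TaTcaATA, TtcAccTA and TGcccATA. None of these 20 passed the test relative to the median, where the smallest adjusted p was 0.199 (limma).

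The order of elements was kept from dose to dose more closely among weak sites than among elements without TGTA. Across 181 weak sites the Spearman correlation of the level at 25 ng with that at 250 ng was 0.96, against 0.65 across 168 partial sites and 0.67 across 652 non-sites. The Pearson correlations were 0.97, 0.86 and 0.75. Such correlations depend on the range of levels in a class, which was not matched here. Share and edits per edited read of weak sites went together across elements, with a Spearman correlation of 0.88 at 25 ng and 0.93 at 250 ng, and 0.30 without induction. In non-sites it was 0.19, 0.48 and 0.13. These values are descriptions across elements of the same pooled libraries, and share and edits per edited read have the count of edited reads in common. The 20 highest levels were 4 strong and 16 weak sites at each dose, and the lowest consensus form ranked 9 at 25 ng and 7 at 250 ng.

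The number of A bases in a non-site element went with little difference in the step. Non-sites with 2 A bases (159 elements) had a median log2 step of 0.86 in level, and those with 5 A bases (48 elements) had 0.88. Their levels at 250 ng were 7.76% ± 0.0701 and 7.81% ± 0.0944 (SD, n = 3).

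The abundance of the elements was also compared, since Pumilio binding can change mRNA levels. No element was called in its reads relative to the library (edgeR, 0 of 1005, 0%), with 81 at an unadjusted p under 0.05; DESeq2 called 0, with 211 at an unadjusted p under 0.05. The median log2 change was 0.07 in strong sites, -0.02 in weak sites, -0.05 in partial sites and 0.01 in non-sites. Strong sites had 968 ± 80.1 CPM (reads scaled to library size) at 25 ng and 1021 ± 30.5 at 250 ng (SD, n = 3). The count at an unadjusted p under 0.05 varied with single libraries, from 379 without replicate 1 of 25 ng to 5 without replicate 2 and 2 without replicate 3 of that dose. It was 8 without replicate 1, 108 without replicate 2 and 1 without replicate 3 of 250 ng, with 0 called in each. Replicates of a dose differed in reads by 12.8 to 201 times what counting error gives (as a ratio of variances), so the spread between replicates limits this test.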

How the data were processed

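The authors deposited 1 table per library with 3 counts per element (reads, edited reads, summed edits) and the count of all reads. They also deposited the percent of edited adenosines, the percent of reads and an efficiency score, which were recomputed from the counts within 1e-09 and not used further. Per the labels, amplicons of the recorder mRNA were sequenced; no label or header names the aligner or edit caller, and no molecular identifiers are mentioned, so reads may be PCR copies. The lowest listed count is 1015 reads. Of 1022 entries, 16 were not in all 12 tables and 1 (EMPTY) is not an 8-base element. No count was 0, so no pseudocount was used.

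Log2 values were tested with limma 3.58.1 (R 4.3.3; lmFit, eBayes with trend) on the 6 libraries, with Benjamini-Hochberg adjustment over 1005 elements and calls at 0.05. The 6 other libraries were left out because a fit of all 12 gave only 4, 3 and 1 unadjusted p-values under 0.05 relative to the median. "Relative" means after each library's median was subtracted. Class medians of libraries were compared by two-sided exact permutation. Reads were tested with edgeR 4.0.16 and DESeq2 1.42.0, a test added after the data were seen. Scripts (Python 3.11.15) were tested on simulated data. Replicates of a group differed in reads beyond sampling noise and none was a duplicate.

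Members, classes and lists were chosen with earlier results of these data known. Named by sequence were the 4 consensus forms and 9 single substitutions of the T form at positions 6 to 8. So were the 4 forms with C at position 2 and A at position 3, and 4 reversed forms. Named by value, as descriptions, were the 5 largest and 5 smallest relative steps in share and in edits per edited read. Alternatives were another scale, other class definitions, pooled counts, subtraction of the non-induced mean, a minimum of 5000 reads (964 elements), other models and each library left out.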

Additional observations from a re-analysis of the deposited data

How the results depend on the processing

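Of the results recomputed under other settings, 390 were counted as alike, 12 differences between classes changed sign, 4 share parts moved and 3 counts rose from 0. Alike meant the same sign for steps and differences, and a change within the SD over library pairs for share parts. For counts it meant an equal or similar number. A changed p-value was not counted as a change. With the non-induced mean subtracted, the share part became 91.4% in strong sites, 91.4% in weak sites, 91.1% in partial sites and 91.8% in non-sites. Strong minus non-site steps then became -0.19 in level, -0.18 in share and -0.0013 in edits per edited read, and weak minus non-site -0.0011 in edits per edited read. Folds in level and share rise by construction, since the same background is removed from a lower level at 25 ng. That rise is larger in the class with the lower level. Both differences in edits per edited read were smaller than their SEs (0.0288 and 0.0043), and the cause of their sign was not tested. On the odds scale (edits beyond the first per edited read) strong minus non-site edits were -0.0107. With reads pooled over a class, weak minus non-site level was 0.0143. With the 36 single substitutions as weak sites it was 0.0297 in level and 0.0037 in share; the cause of these sign changes was not tested.

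The arcsine scale called 44 elements higher and 1 lower (TGTtcAgA, a partial site) in relative level. Leaving out single libraries gave -0.0183 to 0.0475 for strong minus non-site level, -0.0209 to 0.0280 for share and 0.01 to 0.03 for edits per edited read. For weak minus non-site the ranges were -0.0200 to 0.0024 in level and -0.02 to -0.01 in share and 0.0023 to 0.0141 in edits per edited read. Relative calls in edits per edited read ran from 0 to 1; the 1, without 25 ng replicate 2, was cccccccc (limma, adjusted p = 0.0264). Calls of edits per edited read ran from 978 to 1005, and were 990 with all 12 libraries and 980 without moderation.

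The replicate numbers did not pair the libraries, since same-numbered libraries correlated at -0.095 to -0.0028 in their deviations and 0 of 6 correlated best with its own number. With the replicate number as a block 1005, 1005 and 1002 elements were higher in level, share and edits per edited read, and 0 relative to the median. In reads per element 0 were called with the block and with all 12 libraries, with 300 and 321 at an unadjusted p under 0.05 (edgeR). With 3 libraries per dose the permutation test cannot pass 0.05, so it says nothing about stability. Reads per element limit single elements: the lowest had 1167 reads.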
